A study of Mus musculus and Homo sapiens with 4 samples.

Results

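Distal chromosome 20q was described through the entries of 2 deposited RNA-sequencing files whose start lies at or above 40000000 on chromosome 20. By this rule 264 of 25932 entries were taken. They reach to 62405151, near the end of the arm, and hold the markers given for the region, BCAS4, ZNF217 and BCAS1. The choice used position alone. The last entry before the limit, KIAA1335 (start 39464584), had RPKM values of 32.2 in VCaP and 17.7 in VCaP ERα. The first entry after it, the receptor phosphatase gene PTPRT (start 40134806), had 0.0688 and 0.524 RPKM. RPKM is the number of reads per kilobase of the entry, scaled to the mapped reads of the library.

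VCaP is a prostate cancer cell line, and VCaP ERα is the same line made to overexpress oestrogen receptor alpha (ERα, spelled ERa in the labels). The files hold 1 library for each, from cells labelled passages 5 to 6 for VCaP and 4 to 5 for VCaP ERα. Both were kept in DMEM with serum, and total RNA was depleted of ribosomal RNA and sequenced with the strand marked. The labels also call both libraries poly-A-. Whether the ERα cells were 1 clone or a pool, and whether oestradiol was given before RNA extraction, is not given in the sources used here. Mouse fibroblast libraries of the same series were not used. The study compared the human libraries to find genes downstream of ERα. With 1 library per condition no difference below has a replicate check, no test between conditions was made, and all values describe these 2 libraries.

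The long arm of chromosome 20 is a region in which extra DNA copies are often found in epithelial tumours, breast tumours among them. Several genes of 20q13 are known for their part in such tumours, such as ZNF217, a zinc finger repressor, NCOA3, a coactivator of nuclear receptors, and AURKA, a mitotic kinase. The same arm carries a cluster of secreted protease inhibitors, the imprinted GNAS locus, and, close to its end, ion channel and receptor genes of nerve cells. RNA levels do not give the number of DNA copies, and no DNA data were used here.

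The labels were checked first. ESR1, the gene of ERα, had 15.7 RPKM in VCaP against 209 RPKM in the ERα cells, the direction of the labels. In the sentences below, where a pair of RPKM values is given, the library labelled VCaP comes first and VCaP ERα after it. The library labelled VCaP, however, went against its label in prostate genes: of 12 luminal prostate genes 12 were higher in VCaP ERα, their summed levels were 20.3 and 2221 RPKM, and 2 of the 12 were listed at 0 in the library labelled VCaP. Of 14 luminal breast genes on 15 entries, 12 of the 14 entries at 1 RPKM or more had the larger RPKM in the library labelled VCaP, and the summed levels were 5050 and 1233 RPKM. The list of 6 basal epithelial genes summed to 58.7 and 4.09 RPKM, of which KRT17 gave 38.9 and 0.774 RPKM. Of the 5 entries at 1 RPKM or more, 4 had the larger RPKM in the library labelled VCaP. KRT14, listed at 0 there, had 1.19 RPKM in VCaP ERα and went the other way. So did KRT5 (0.0259 and 0.623 RPKM), under 1 RPKM in both. These lists differ between the same libraries as every value given below. Their part in those differences was not tested, and with 1 library each, a difference between cultures and an effect of ERα cannot be told apart.

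For the log2 ratio of an entry, 1 was added to each RPKM value and VCaP ERα was divided by the library labelled VCaP. The median ratio of the 9754 entries that reached 1 RPKM in each library was -0.59, and this median was subtracted from every ratio, giving the centred log2 ratio. An entry with the same RPKM in both libraries therefore has a centred log2 ratio of 0.59. Adding 1 understates the change of entries near 0. "Lower" and "higher" below mean lower and higher in VCaP ERα relative to the library labelled VCaP after centring, unless RPKM is named.

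Distal 20q was a region of high levels in the library labelled VCaP. Its 264 entries are 1.02% of all entries, and they held 2.85% of the summed RPKM of that library but 1.27% of that of VCaP ERα. At least 10 RPKM was reached by 93 of the 264 entries in the library labelled VCaP and by 41 in VCaP ERα, where of all 25932 entries 4858 and 3014 did so. At least 100 RPKM was reached by 16 and 7 members and by 399 and 263 of all entries, so the number fell between the libraries over the whole of the files too. Listed at 0 were 62 members in the library labelled VCaP (23.5%) against 7 in VCaP ERα (2.65%), of which 6 were at 0 in both. Of all entries 33.8% and 13.9% were at 0, so this order is shared by the files as a whole. The number of entries at 1 RPKM or more was thus larger in VCaP ERα (169) than in the other library (148). In bulk RNA, fewer cells with a transcript and less of it per cell cannot be told apart.

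A centred log2 ratio below -2 was found for 28 of the 264 entries (10.6%), against 3.35% of all entries of the files. A ratio above 2 was found for 9 entries (3.41%), against 4.77% of all entries. Among the 131 members that reached 1 RPKM in each library, 26 (19.8%) lay below -2, against 5.14% of all such entries, and 0 lay above 2, against 4.51%. Of these 131 members 100 were lower (76.3%), where centring sets the share of all such entries to 50.0%, and their median was -0.78. Over all 264 members the median was 0.41, against 0.59 for all entries, because entries near 0 in both libraries sit close to 0.59. At least 1 RPKM in at least 1 library was reached by 186 members, 38 of them in VCaP ERα alone and 17 in the library labelled VCaP alone. Of the 186, 111 were lower (59.7%), against 47.2% of the 13954 entries of the files at that level. The share below -2 was 15.1% against 6.22%, and the share above 2 was 4.84% against 8.87%. An entry can pass this limit through 1 library alone, which favours entries that differ. Without centring, 42 members lay below -2 and 1 lay above 2, against 6.56% and 2.27% of all entries. With a pseudocount of 0.1 the numbers were 36 and 37, and after quantile normalization 28 and 4, so the number above 2 depended on the setting more than the number below -2.

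**Figure D1:**
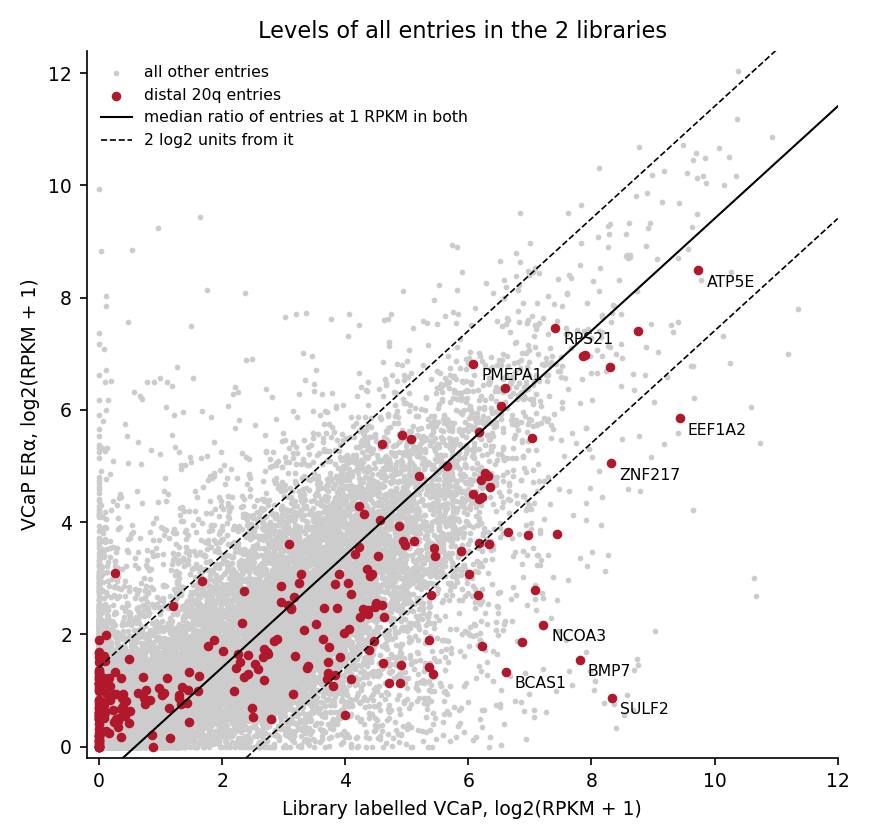
Level of every entry, as log2(RPKM + 1), with VCaP ERα (vertical) against the library labelled VCaP (horizontal). Red points are the 264 distal 20q entries, grey points all other entries, the solid line the median ratio of entries at 1 RPKM or more in both, and the dashed lines lie 2 log2 units from it. The 28 red points under the lower dashed line include SULF2, BMP7, BCAS1, NCOA3, ZNF217 and EEF1A2, while the 9 above the upper line sit near 0 in the library labelled VCaP.

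The entries below -2 were well expressed in the library labelled VCaP, which the formula in part requires. With 1 added to each value, an entry of low level there cannot fall below -2. An entry near 0 there can pass 2 with a low level in VCaP ERα. For the 28 entries below -2 the median level was 66.9 RPKM against 2.54 RPKM in VCaP ERα. None of the 28 was under 10 RPKM in the library labelled VCaP, and 2 of them (SULF2 and KCNK15) were under 1 RPKM in VCaP ERα. Without these 28 entries the region held 1.70% and 1.17% of the summed RPKM of the libraries, so a smaller excess remained. The 9 entries above 2 were all under 1 RPKM in the library labelled VCaP, and 5 of them were listed at 0 there. Entries at 1 RPKM or more in at least 1 library were also grouped by the mean of their log2(RPKM + 1) in both libraries. The members from 2 to 3 on this scale had a median centred log2 ratio of -0.67 (35 members), against -0.24 for all such entries of that level. Those from 3 to 4 had a median of -1.34 (34 members), against -0.22. From 4 to 5 the medians were -1.89 (22 members) and -0.09, and at 5 or more they were -0.80 (27 members) and 0.17. At 1 to 2 they were 0.16 (30 members) and 0.14, and at 0 to 1 they were 1.71 (38 members) and 1.60. The median of the members thus lay below that of other entries of like level from a mean of 2 upward, and slightly above it under 2.

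The region differed from the rest of its chromosome. Of the 395 entries of chromosome 20 with a lower start, 173 reached 1 RPKM in each library, and their median centred log2 ratio was 0.16. Of these 173 entries 4 (2.31%) lay below -2. Distal chromosome 17, taken from the same start of 40000000, resembled distal 20q, with a median of -0.64 over 291 entries and 12.7% below -2. In blocks of 20 Mb over all chromosomes, 141 blocks had at least 30 entries at 1 RPKM or more in at least 1 library. The block from 40 to 60 Mb of chromosome 20 ranked 12 from the lowest median (-0.44) and 2 by the share below -2 (17.6%). The block from 60 Mb to the end ranked 28 by median (-0.19) and 16 by that share (10.4%), and 11.9% of its entries lay above 2.

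**Figure D2:**
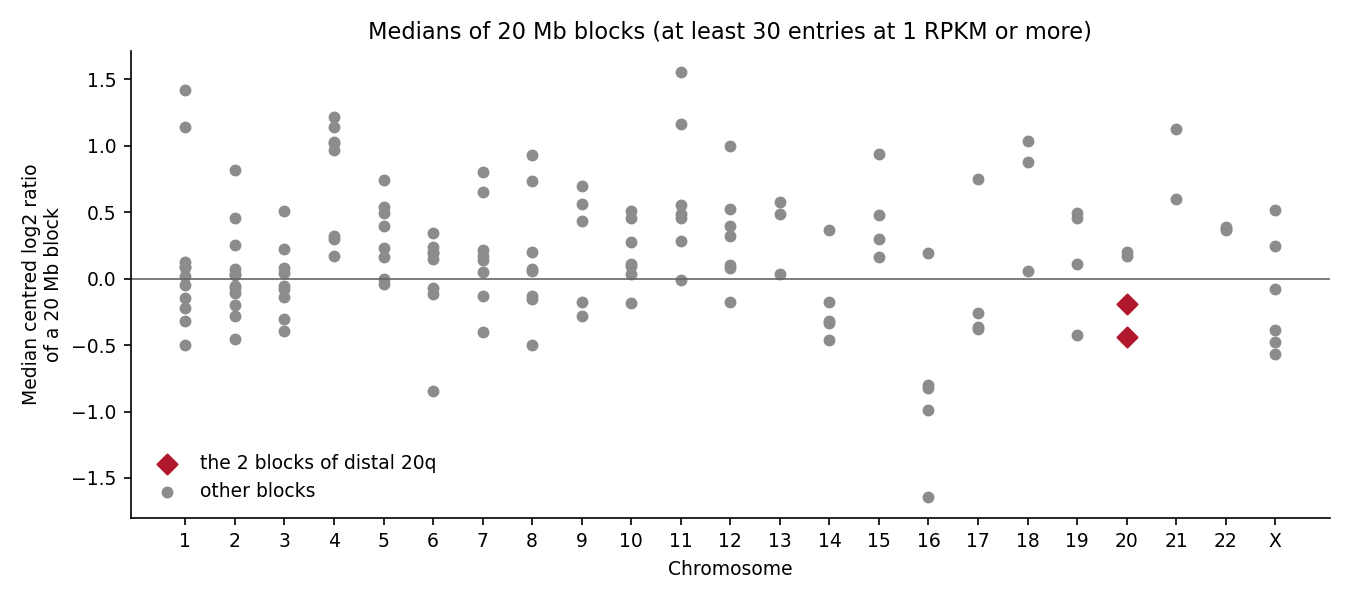
Median centred log2 ratio (vertical) of each 20 Mb block with at least 30 entries at 1 RPKM or more in at least 1 library, by chromosome. The red diamonds are the blocks of distal 20q, at -0.44 and -0.19, and 4 of the 5 lowest blocks lie on chromosome 16, down to -1.64.

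Along the arm most of the low entries lay before all of the high ones, and the end of the arm held both. From KCNK15 (start 42807902) to RBM38 (start 55399870) lay 21 of the 28 entries below -2, among 81 entries with at least 1 RPKM in at least 1 library. Beyond RBM38 lay the other 7, among 93 such entries, and all 9 entries above 2. Before KCNK15 lay 12 such entries and none past either threshold. KCNK15 is the first entry below -2 on the arm, and RBM38 is the last before a gap that ends at ADRM1. These bounds were thus set by the values themselves, so that none below -2 lay before KCNK15 follows from the choice. Of all entries of the files at that level 6.22% lay below -2 and 8.87% above 2. In bins of 2 Mb the summed RPKM of the library labelled VCaP was 0.697 times that of VCaP ERα from 40 to 42 Mb. It was 2.07 times from 42 to 44 Mb, 8.96 times from 44 to 46 Mb and 2.18 times from 46 to 48 Mb. It was 7.07 times from 48 to 50 Mb, 11.6 times from 50 to 52 Mb and 2.85 times from 52 to 54 Mb. From 54 to 56 Mb it was 2.64 times and from 56 to 58 Mb 2.40 times. It was 0.793 times from 58 to 60 Mb, 3.40 times from 60 to 62 Mb and 2.76 times from 62 to 64 Mb. The library labelled VCaP thus had the larger sum in every bin from 42 to 58 Mb, by uneven amounts. Over all entries of the files the sums were 267630 and 196948 RPKM. Single genes weigh on such sums, as SULF2 (322 and 0.832 RPKM) does from 44 to 46 Mb. ZNF217 (318 and 32.2 RPKM) does so from 50 to 52 Mb, and EEF1A2 (689 and 56.7 RPKM) from 60 to 62 Mb. The median centred log2 ratio of that bin was -0.19. The bin from 50 to 52 Mb holds 6 entries, of which ZFP64, ZNF217 and BCAS1 reached 1 RPKM.

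**Figure D3:**
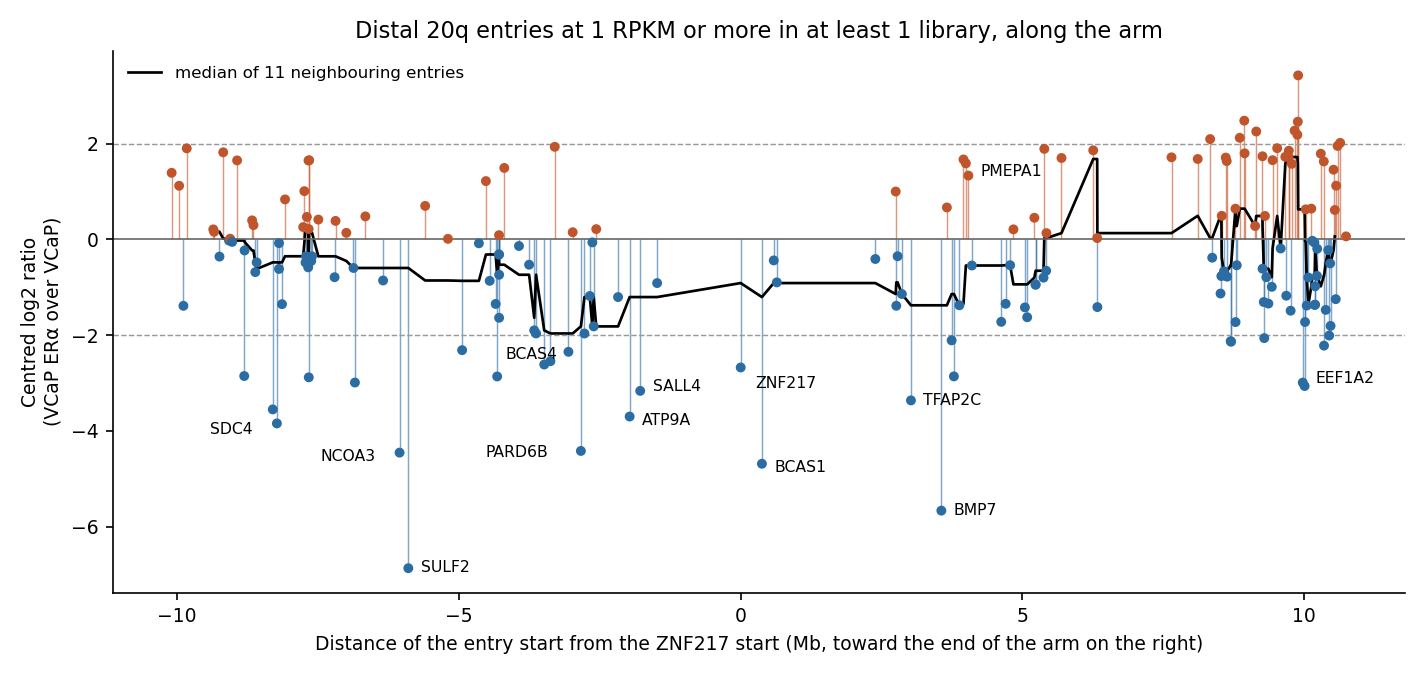
Centred log2 ratio (vertical) of the 186 distal 20q entries with at least 1 RPKM in at least 1 library, by the distance of their start from that of ZNF217 in Mb (horizontal). Blue points are lower and orange points higher in VCaP ERα, the black line is the median of 11 neighbouring entries and the dashed lines mark 2 and -2. The deepest points lie from SDC4 to BMP7, whereas the points above 2 lie toward the end of the arm, where the low entry EEF1A2 lies too.

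Runs of neighbours were described by the median of 11 entries next to each other, among those with at least 1 RPKM in at least 1 library. Of 176 such windows on distal 20q, which overlap and so are not separate regions, 27 (15.3%) had a median below -1, against 6.11% of 13714 windows over all chromosomes. A median above 1 was found in 11 windows (6.25%), against 12.9% of all windows. The lowest, at -1.96, ran from 47682890 to 48927121 and held B4GALT5, SLC9A8, SPATA2, RNF114, UBE2V1, CEBPB, AK307192, PTPN1, FAM65C, PARD6B and BCAS4. Of these 11 entries 9 were lower. The exceptions were AK307192 (a listed 0 and 1.54 RPKM) and FAM65C, whose 1.72 and 1.01 RPKM put it above 0 only through the centring (0.15, and -0.44 without it). Among all windows 0.496% were as low. The next window that shared no entry with it, at -1.38, ran from CBLN4 through AURKA, TFAP2C, BMP7 and RAE1 to HMGB1L1 (54005903 to 55497489), and the next, at -1.36, from EEF1A2 to ZGPAT (61589810 to 61837982). Among the high windows, that from 56989706 to 59949067 had a median of 1.68, and 4.02% of all windows were as high. Of its 11 entries 8 were higher, among them CTSZ, EDN3, SYCP2 and CDH4, and 3 were lower, among them ATP5E. EDN3, CDH4, AK025855 and the entry that gives the median reached 1 RPKM in VCaP ERα alone, so their direction follows from the way they were kept.

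The longest unbroken stretch of lower entries held 9, from NFATC2 to CBLN4 (49441172 to 54013419), with a median of -1.20. In order along the arm these were NFATC2, ATP9A, SALL4, ZFP64, ZNF217, BCAS1, CYP24A1, PFDN4 and CBLN4. Entries between them under 1 RPKM in both libraries, such as TSHZ2 and DOK5, were passed over. NFATC2, CYP24A1 and CBLN4 reached 1 RPKM in the library labelled VCaP alone, so their direction follows in part from the way they were kept. Over all chromosomes the longest stretch of lower entries held 43. In all, 8 stretches of at least 5 lower entries held 50 entries, or 26.9% of the 186. Of all entries of the files at 1 RPKM or more in at least 1 library, such stretches held 16.9%. Stretches of at least 5 higher entries numbered 2 and held 5.91% of the 186, against 23.2% of all entries at that level. The longer of them, of 6 entries, ran from GATA5 to AX747649 (60471948 to 60877814). All of its entries but SLCO4A1 reached 1 RPKM in VCaP ERα alone, so their direction follows from the way they were kept.

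ZNF217 lay in the middle of the lower stretch from NFATC2 to CBLN4, and its neighbours differed in size of change. ZNF217, a transcriptional repressor (chromosome 20, 51617017 to 51644208), had 318 and 32.2 RPKM, a centred log2 ratio of -2.68. It ranked 94 of 25932 entries by level in the library labelled VCaP but 953 in the ERα cells, so it was a well expressed gene in both. BCAS1, a gene first described in amplified DNA of breast cancer (51993486 to 52120711), starts 376 kb further along and had 97.0 and 1.53 RPKM, a centred log2 ratio of -4.69. PFDN4, a subunit of the prefoldin chaperone, had 78.4 and 27.3 RPKM (-0.90), and CYP24A1, the enzyme that degrades active vitamin D, had 1.76 and 0.356 RPKM (-0.44). The other entries within 1 Mb, TSHZ2, AK056432, SUMO1P1 and DOK5, were under 1 RPKM in both libraries. Within 1 Mb of ZNF217 the entries at 1 RPKM or more in at least 1 library were therefore all lower, but by amounts from -0.44 to -4.69. CYP24A1 reached 1 RPKM in the library labelled VCaP alone, so its direction follows in part from the way it was kept. ZNF217, BCAS1 and PFDN4 reached 1 RPKM in both, with ratios from -0.90 to -4.69.

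BCAS4, the third marker of the region (48844874 to 48927121), had 13.2 and 1.42 RPKM, a centred log2 ratio of -1.97. Its neighbour PARD6B, a cell polarity protein (48781488 to 48803685), had 116 and 2.64 RPKM (-4.42). ADNP, a homeobox protein of chromatin on the other side of BCAS4, had 73.3 and 20.8 RPKM (-1.18), and DPM1, an enzyme of protein glycosylation, had 49.5 and 31.2 RPKM (-0.06). From PARD6B to MOCS3, a length of 0.230 Mb, the 5 entries at 1 RPKM or more were all lower after centring, and their ratios spanned more than 4 log2 units.

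The lowest entry of the arm lay beside another low one. SULF2, a secreted sulfatase that trims heparan sulfate (45719559 to 45848767), had 322 and 0.832 RPKM, and its centred log2 ratio of -6.87 was the lowest of the region. NCOA3, the coactivator of oestrogen and other nuclear receptors (45564064 to 45719021), ends next to it and had 148 and 3.51 RPKM (-4.45). NCOA3 ranked 221 of all entries by level in the first library and 6407 in the other. NCOA5, another receptor coregulator of the arm, had 18.9 and 16.6 RPKM, which lay above 0 after centring (0.42) and below 0 without it (-0.17). ZMYND8, a chromatin reader that starts before NCOA3, had 33.8 and 11.8 RPKM (-0.86), so the difference was larger at NCOA3 and SULF2 than at their neighbour.

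The list of genes of 20q13 known for gain or raised expression in breast tumours had 17 members, all at 1 RPKM or more in at least 1 library. Of the 17, 9 lay below -2 and 0 above 2, and the median was -2.11, against 0.09 for all 13954 entries at that level, of which 6.22% lay below -2. The list was drawn up with earlier results of these libraries known, so its direction is a description. Secreted factors and enzymes among its members included SULF2 and BMP7, a bone morphogenetic protein (55177216 to 55275114) with 223 and 1.92 RPKM (-5.67). Signalling genes included PTPN1, a tyrosine phosphatase, with 63.4 and 7.40 RPKM (-2.35) and PREX1, an activator of Rac, with 16.2 and 1.29 RPKM (-2.31). Transcription factors included TFAP2C, the factor AP-2 gamma, with 40.2 and 1.66 RPKM (-3.36). The exceptions were CSE1L, a nuclear export factor, with 29.4 and 46.1 RPKM (1.22), and UBE2C, a ubiquitin-conjugating enzyme of mitosis, with 4.12 and 5.84 RPKM (1.01). These 2 genes had more RPKM in VCaP ERα even before centring.

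**Figure D4:**
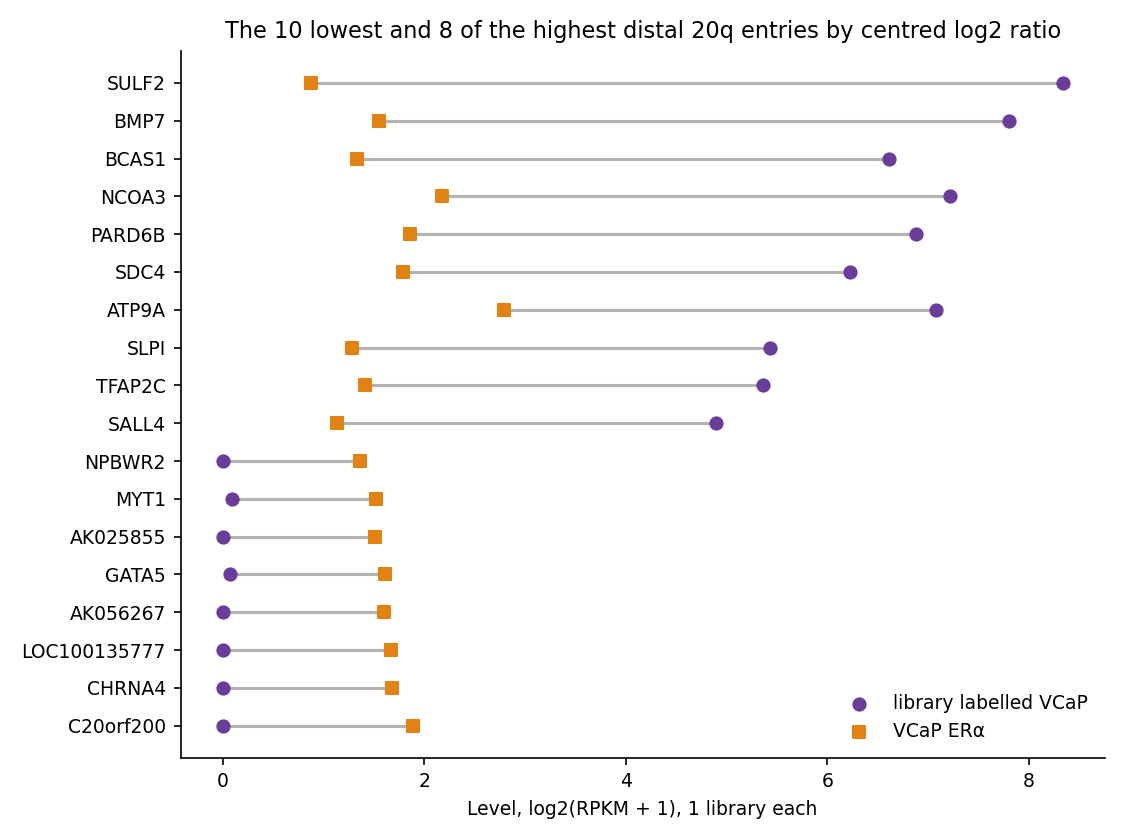
Level, as log2(RPKM + 1), of the 10 distal 20q entries with the lowest centred log2 ratio and 8 of those with the highest, in the library labelled VCaP (circles) and VCaP ERα (squares), 1 library each. The lowest entries, from SULF2 to SALL4, go from 28.7 to 322 RPKM down to between 0.832 and 5.92 RPKM. The 8 high entries start at 0 to 0.0662 RPKM and reach 1.58 to 2.72 RPKM.

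Transcription factors and cofactors were lower as a rule. Of 33 entries on this list 23 reached 1 RPKM, 19 of the 23 were lower, 7 lay below -2 and 2 above 2, and the median was -0.98. Of all entries at that level 47.2% were lower, 6.22% lay below -2 and 8.87% above 2, and of the 186 members of the region 59.7%, 15.1% and 4.84%. These shares stand beside the counts of the other lists as well. Beside NCOA3, ZNF217 and TFAP2C, the factors below -2 were SALL4, a zinc finger factor of embryonic stem cells, with 28.7 and 1.20 RPKM (-3.16), ZNFX1 with 70.4 and 5.51 RPKM (-2.86), CEBPB, a bZIP factor at 23.6 RPKM in the library labelled VCaP (-2.54), and ZNF512B with 21.2 and 2.67 RPKM (-2.01). MYBL2, a factor of the cell cycle, had 9.44 and 1.65 RPKM (-1.39). GATA5 and MYT1, factors of gut and heart and of nerve cells, were the 2 above 2. Both were near 0 in the library labelled VCaP (0.0561 and 0.0662 RPKM) and had 2.06 and 1.87 RPKM in VCaP ERα. GATA5 and MYT1 thus reached 1 RPKM in VCaP ERα alone. The factors of the list under 1 RPKM in both libraries also had positive ratios, from 0.52 (SNAI1) to 1.22 (TSHZ2).

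SDC4 and SLPI, a cell surface and a secreted protein, were the lowest entries near the start of the low section, while PLTP, a secreted lipid transfer protein nearby, was higher (0.407 and 1.95 RPKM, 1.66). SDC4, the heparan sulfate proteoglycan syndecan 4 (43387343 to 43410478), had 73.5 and 2.45 RPKM (-3.84). SLPI, a secreted inhibitor of leukocyte proteases (43314293 to 43316620), had 42.0 and 1.44 RPKM (-3.55). It belongs to the cluster of whey acidic protein domain genes (WFDC), serine protease inhibitors and semenogelins, in which 15 of 17 entries were under 1 RPKM in both libraries and 14 of 17 were listed at 0 in the library labelled VCaP. Beside SLPI only WFDC2 reached 1 RPKM, with 0.698 and 1.02 RPKM. The semenogelin entry, SEMG1 with SEMG2, whose products make up much of the seminal coagulum, was listed at 0 and had 0.0657 RPKM. A cluster known for secretion in the male tract was thus nearly silent in both libraries, apart from SLPI.

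Some other entries below -2 code for membrane or lysosomal proteins, and they are named for their low ratios. ATP9A, a phospholipid flippase (49646721 to 49818315), had 134 and 5.92 RPKM (-3.70), SLC2A10, a glucose transporter, had 25.3 and 1.20 RPKM (-2.99), and KCNK15, a potassium channel, had 15.0 and 0.474 RPKM (-2.85). CTSA, a lysosomal carboxypeptidase, had 40.1 and 2.71 RPKM (-2.88). CTSZ, another lysosomal protease, went the other way with 1.31 and 4.70 RPKM (1.89). The immune and inflammation list, to which these proteases belong with CEBPB, PTPN1 and ZNFX1, had 12 of 15 entries at 1 RPKM or more, of which 9 were lower, 4 lay below -2 and 0 above 2, with a median of -1.09. Of all entries at that level 47.2% were lower, 6.22% lay below -2 and 8.87% above 2. CD40, a receptor of the tumour necrosis factor family, was listed at 0 in the library labelled VCaP and had 0.731 RPKM in VCaP ERα, and MMP9, a secreted protease, had 0.769 and 0.784 RPKM.

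Housekeeping genes of the arm were lower in a narrower band. All 28 matched entries were at 1 RPKM or more in both libraries. Of the 28, 25 were lower, 4 lay below -2 and 0 above 2, and the median was -1.01. Among the 131 members of the region at that level 76.3% were lower and 19.8% lay below -2. Among all such entries of the files these shares were 50.0% and 5.14%. The list thus had no larger share below -2 than the region. ATP5E, a subunit of the mitochondrial ATP synthase and the highest entry of the region in both libraries, had 849 and 358 RPKM (-0.65). PSMA7, a proteasome subunit, had 433 and 169 RPKM (-0.76), and ADRM1, the ubiquitin receptor of the proteasome, had 79.6 and 11.3 RPKM (-2.13). The lowest of the list was UBE2V1, a ubiquitin-conjugating enzyme variant whose entry also carries TMEM189, with 125 and 12.6 RPKM (-2.61). RPS21, a ribosomal protein, had 169 and 176 RPKM, close to equal in RPKM and so at 0.64 after centring. YWHAB, a 14-3-3 protein, had 95.3 and 83.4 RPKM (0.40), and its direction turns without centring.

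**Figure D5:**
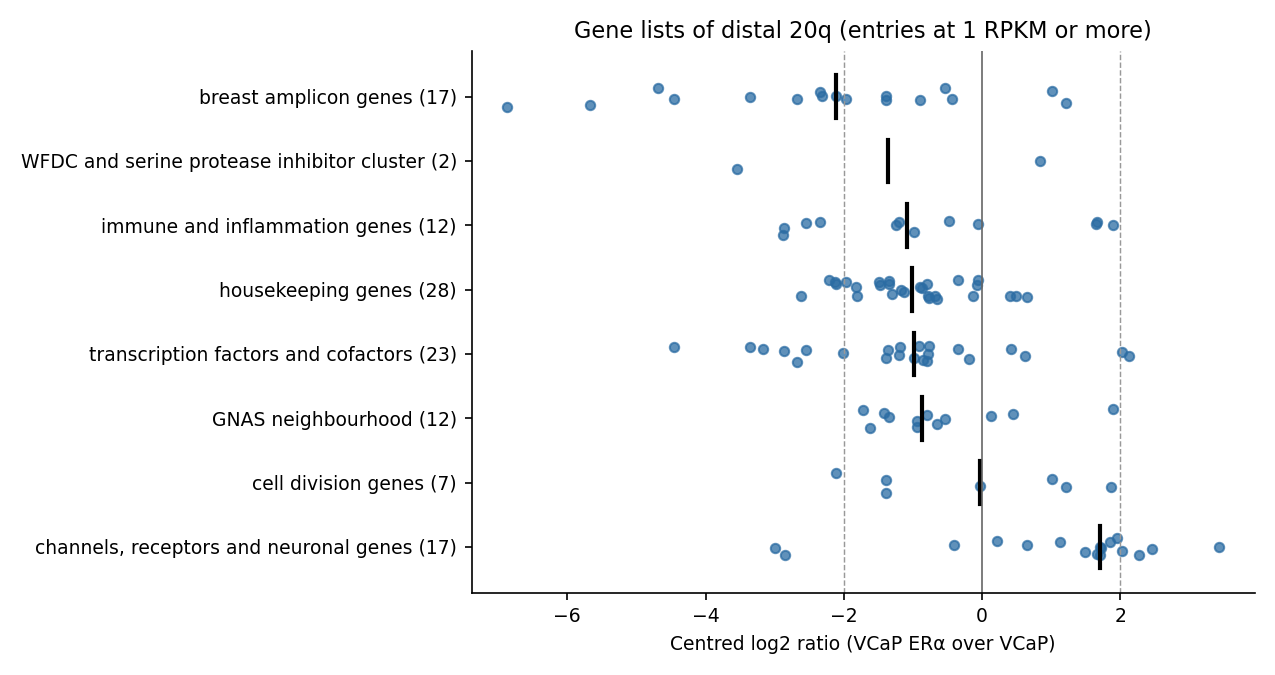
Centred log2 ratio (horizontal) of the members of the 8 gene lists of distal 20q that had at least 1 RPKM in at least 1 library, with their number in brackets. Each point is 1 entry, the black bar is the median of the list and the dashed lines mark 2 and -2. The breast amplicon list has its median at -2.11 and the list of channels, receptors and neuronal genes at 1.70, and genes may stand in more than 1 list.

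The GNAS locus, an imprinted locus whose main product is the stimulatory G protein alpha subunit, was moderately lower. GNAS stands on 2 overlapping entries, with 314 and 108 RPKM on the first (-0.94) and 130 and 44.2 RPKM on the other (-0.95), and reads may be shared between them. The antisense entry GNASAS, which overlaps GNAS, had 1.76 and 1.51 RPKM, and whether the counting used the strand is not given in the sources used here. Among the 12 entries of this neighbourhood at 1 RPKM or more, 9 were lower and 0 lay past 2 in either direction, and the median was -0.87. The syntaxin gene STX16 (19.7 and 4.14 RPKM, -1.42) and NPEPL1, an aminopeptidase (7.86 and 0.907 RPKM, -1.63), were further from 0 than GNAS. CTSZ, which is part of this neighbourhood, was its highest entry at 1.89.

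Cell division genes went in both directions. AURKA (15.7 and 3.25 RPKM, -1.39) and RAE1, an mRNA export factor with a role in the spindle (41.3 and 5.51 RPKM, -2.11), were lower with MYBL2 and RTEL1 (-0.03), while CSE1L, UBE2C and SYCP2, a protein of the meiotic chromosome axis (2.19 and 6.71 RPKM, 1.86), were higher. The median of the 7 genes was -0.03. AURKA and UBE2C act in the same phase of the cell cycle and differed by more than 2 log2 units here, with AURKA lower and UBE2C higher.

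Genes with more RPKM in VCaP ERα were mostly those near 0 in the other library. This order is not particular to the region, since 33.8% of all entries were at 0 for VCaP against 13.9% for VCaP ERα. The counts that follow were made for the members alone, so they have no matching share over the files. Before centring 118 members had more RPKM in VCaP ERα, and 105 of them had less than 1 RPKM in the library labelled VCaP. The other 13 included PMEPA1, an androgen-induced inhibitor of TGF-beta signalling (55656858 to 55719947), with 66.4 and 112 RPKM (1.34), which ranked 6 among the members by level in VCaP ERα. They also included SFRS6, a splicing factor, with 23.2 and 41.2 RPKM (1.39), C20orf108 with 32.5 and 43.5 RPKM (1.00) and IFT52, a protein of ciliary transport, with 7.45 and 11.2 RPKM (1.12). PMEPA1 lies between the low entry RBM38, a p53-induced RNA-binding protein with 29.0 and 1.74 RPKM (-2.86), and the GNAS locus, which was lower too.

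Channel, receptor and nerve cell genes were 4 of the 9 entries above 2. Of 25 entries on this list 17 reached 1 RPKM, 14 of these were higher, 4 lay above 2 and 2 below -2, and the median was 1.70. Most of these entries have low levels. Among entries of the files at 1 RPKM or more in at least 1 library, those with a mean log2(RPKM + 1) of 0 to 1 had a median of 1.60. The list's median thus lies near that of low entries kept by the same rule. An entry with a mean under 1 can reach 1 RPKM in 1 library alone, so its distance from 0 follows in part from that rule. Only EEF1A2 and STMN3 reached 1 RPKM in each library, and with opposite signs, so no direction of the list can be read from them. In the library labelled VCaP 9 of the 25 entries were listed at 0, and in VCaP ERα none was. Of all entries of the files 33.8% and 13.9% were at 0. Zeros of the list in the library labelled VCaP were thus about as frequent as over the files. CHRNA4, a subunit of the nicotinic acetylcholine receptor, was listed at 0 and had 2.22 RPKM. EDN3, CDH4, HRH3, NKAIN4 and NPBWR2 were likewise listed at 0 in the library labelled VCaP and had from 1.16 to 1.58 RPKM. These levels are low, and no fold is given for genes listed at 0.

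The end of the arm put both directions side by side. EEF1A2, a translation elongation factor of muscle and nerve (61589810 to 61600949), lies in the section that holds most entries above 2. It had 689 RPKM in the library labelled VCaP, where it ranked 34 of all entries, and 56.7 RPKM in VCaP ERα (-2.99). The next entry, C20orf149, had 172 and 12.8 RPKM (-3.06), and PTK6, a tyrosine kinase of epithelia, had 14.1 and 2.03 RPKM (-1.72). STMN3, a stathmin of neurons, had 17.7 and 18.4 RPKM and lay at 0.65 after centring, as nearly equal levels do. EEF1A2, KCNK15 and CBLN4 were the lower members of the list of channels, receptors and neuronal genes, and EEF1A2 and KCNK15 were, with STMN3, its only entries above 10 RPKM in the library labelled VCaP. Some well expressed genes from 60 Mb onward, such as TPD52L2 (98.6 and 13.2 RPKM, -2.22), PRPF6, a splicing factor (58.0 and 10.2 RPKM, -1.81), and ADRM1, were lower, and TPD52L2 and PRPF6 bound a stretch of 6 lower entries.

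Some entries are non-coding. C20orf199, a host of small nucleolar RNAs, stands on 2 nearly identical entries with 236 and 126 RPKM and 232 and 124 RPKM (-0.32 and -0.31), which share reads or hold the same reads. Its small nucleolar RNAs SNORD12C, SNORD12B and SNORD12 had 7.98 and 5.35, 12.2 and 1.83, and 10.5 and 3.56 RPKM, with centred log2 ratios of 0.09, -1.64 and -0.74. Entries this short are counted with less certainty than whole genes. HAR1B, a transcript at a fast-evolving human sequence, had 4.32 and 2.10 RPKM (-0.19), and its overlapping partner HAR1A had 0.0348 and 0.469 RPKM. In all, 78 of the 264 entries overlap another entry of the region, so neighbours are not independent measurements.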

How the data were processed

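RNA of VCaP and VCaP ERα cells was measured in 1 strand-marked, ribosomal RNA-depleted library each. The authors computed and deposited RPKM values for 25932 known-gene entries. Per the labels, CASAVA 1.8 and the builds hg18 (human) and mm10 were named. The counter and its strand setting are not given in the sources used here. Coordinates and gene names are those of the files, and no human genome or annotation was used. Because total reads are not given, no interval or floor was computed. Ratios between the libraries (to 3 decimals) among 2146 entries at low, nonzero RPKM (under 0.5) recurred at most 38 times, and the next commonest 37 times, which does not fix the relative depth.

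The log2 ratio with a pseudocount of 1 was centred as described above. Windows of 11 entries, stretches of at least 5, bins of 2 Mb and blocks of 20 Mb were formed in order of start. Named were the markers, the 10 lowest and highest ratios, the 10 highest levels, the extreme windows, entries within 1 Mb of ZNF217, members of 8 gene lists, and entries bounding a stretch or threshold. The results of 1 gene are not reported here. Other entries named to complete a neighbourhood were chosen after their values were seen. The members and lists were chosen with earlier results of these data known. The 3 label lists are those of the check of the labels. Alternatives were a pseudocount of 0.1, no filter, 1 RPKM in both libraries, no centring, quantile normalization, 1 entry per symbol, windows of 5 and 21, and a threshold of 1. The scripts were tested on simulated data and ran under Python 3.11.15 with pandas 2.3.3 and numpy 2.4.6, and plots were drawn with matplotlib 3.10.9.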

Additional observations from a re-analysis of the deposited data

How the results depend on the processing

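Without a replicate spread, counts within 1.5 times and log2 ratios within 0.58 of the reported value were read as unchanged. The 28 entries below -2 numbered 26 to 42 under every alternative but the threshold of 1, which gave 59 entries below -1 and 44 above 1 among those at 1 RPKM in at least 1 library, against 19.2% and 26.8% of all such entries. The 9 above 2 became 37 with a pseudocount of 0.1, 0 with 1 RPKM required in both libraries, 1 without centring and 4 after quantile normalization. The lower entries were 75.7% of those past the threshold as reported, and under these settings 49.3%, 100%, 97.7% and 87.5%. Over entries at 1 RPKM in at least 1 library the median was -0.37, turning to 0.41 with no filter and -0.96 without centring. With no filter the medians were 0.69 for the protease inhibitor cluster, against -1.36 from 2 entries, and -0.48 for the immune list. With 1 RPKM required in both, the channel and neuronal list gave -1.17, the midpoint of 2 entries of opposite sign (EEF1A2 and STMN3), the inhibitor cluster -3.55, which is SLPI alone, the immune list -1.80 and the highest window 0.030. A pseudocount of 0.1 gave 4.27 for the channel list and 4.40 for the highest window, from 1.73. Quantile normalization gave -3.67 for the inhibitor cluster. Leaving out the centring lowered everything by 0.59, to -2.55 and 1.14 for the lowest and highest windows and to -2.70 (breast amplicon), -0.62 (cell division), -1.95 (inhibitors), -1.57 (factors), 1.11 (channels), -1.68 (immune), -1.46 (GNAS) and -1.60 (housekeeping) for the lists. With windows of 5 the lowest was -3.16. No paired analysis was possible because each condition has 1 library. No interval was computed, since the depth is unknown.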
